A study of Mus musculus with 6 samples.

Results

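The genes described here are 33 genes of the G1/S transition and of DNA replication, named one by one for their known roles in S phase. They were chosen with earlier results of these data known. They were followed in the cerebella of 14-day-old male mice. All 33 were found in the annotation, each under 1 identifier, out of 55487 genes in the count tables, and all 33 passed a filter on low counts that 18237 genes passed. RNA came from 3 mice homozygous for the knockout allele of Galnt17 (Galnt17tm1.1(KOMP)Vlcg, called Wbscr17KOKO in the labels, here KO) and from 3 wild-type mice of the B6C3 stock (WT), 1 animal per library. B6C3 is the hybrid of C57BL/6J and C3H/He. The labels state that homozygotes of C57BL/6 background died before birth and that the KO animals come from crosses with B6C3 mice, but not how much C3H/He genome they carry. Background genotype and the Galnt17 allele therefore cannot be told apart in this comparison. Galnt17 encodes a member of the enzyme family that begins mucin-type O-glycosylation.

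A cell licenses its replication origins in G1 by loading the MCM helicase, and in S phase it fires them and copies the DNA with polymerases held by the sliding clamp PCNA. Cyclins D and E drive the passage from G1 to S by releasing E2F factors, which switch on most of the genes of replication. In the postnatal cerebellum the main dividing cells are the granule cell precursors of the external granule layer, which Hedgehog signalling keeps in cycle through cyclins D and N-Myc. That layer is nearly spent by the end of the second week, and oligodendrocyte precursors and other glia also divide at that age.

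Promoter sequences are shown for 5 members because E2F control is what ties this set together in the textbook. These members were chosen after their values were seen, and none of them differed past the threshold given below. RefSeq promoter windows of build GRCm38.p6, from 250 bases before to 50 bases after a start site, were matched by symbol for 26 of the 33 members. The windows were searched on both strands for the E2F-type motifs TTTCCCGC, TTTCGCGC, TTTGCCGC and TTTGGCGC. At least 1 of them was found in 12 of the 26 genes (46.2%) and in 704 of all 27025 genes with a window (2.6%). The 12 were Mcm3, Mcm5, Mcm6, Mcm7, Cdc6, Cdt1, Pola1, Rfc3, Lig1, Uhrf1, E2f2 and Mycn. The CCAAT motif was in 61.5% of the members with a window and in 41.1% of all genes. The motif TTTGAA, which is read as part of G2/M promoters, was in 19.2% and 20.2%. The sequences below run 5′ to 3′ from 250 bases before to 30 bases after the start, with E2F-type motifs in capitals. Where 2 motifs on opposite strands overlap they form a single longer run of capitals, as in Mcm6 and Mcm5. Mcm6, Mcm7 and Rfc3 are shown as members whose KO and WT values did not overlap, and Mcm5 as an MCM gene whose values did. Rrm1 is shown as a member whose window holds no exact match to the listed E2F-type motifs. Other forms of E2F site were not searched.
Mcm6, chr1:128359676-128359955, minus strand: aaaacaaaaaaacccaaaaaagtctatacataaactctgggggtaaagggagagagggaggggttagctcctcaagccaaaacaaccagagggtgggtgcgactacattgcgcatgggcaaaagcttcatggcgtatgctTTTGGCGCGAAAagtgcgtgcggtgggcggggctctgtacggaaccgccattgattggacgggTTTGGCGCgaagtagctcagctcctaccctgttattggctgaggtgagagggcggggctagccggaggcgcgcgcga
Mcm7, chr5:138171854-138172133, minus strand: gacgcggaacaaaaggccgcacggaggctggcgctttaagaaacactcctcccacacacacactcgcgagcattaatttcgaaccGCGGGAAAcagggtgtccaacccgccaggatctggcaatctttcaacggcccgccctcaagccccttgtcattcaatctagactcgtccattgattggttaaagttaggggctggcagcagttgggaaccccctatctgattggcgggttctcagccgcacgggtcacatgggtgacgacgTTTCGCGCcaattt
Rfc3, chr5:151651179-151651458, minus strand: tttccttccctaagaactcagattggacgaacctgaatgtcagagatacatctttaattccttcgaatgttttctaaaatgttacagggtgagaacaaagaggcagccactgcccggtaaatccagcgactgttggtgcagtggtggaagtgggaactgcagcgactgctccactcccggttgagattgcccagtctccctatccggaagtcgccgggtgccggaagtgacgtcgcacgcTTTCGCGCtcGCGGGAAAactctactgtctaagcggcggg
Mcm5, chr8:75109259-75109538, plus strand: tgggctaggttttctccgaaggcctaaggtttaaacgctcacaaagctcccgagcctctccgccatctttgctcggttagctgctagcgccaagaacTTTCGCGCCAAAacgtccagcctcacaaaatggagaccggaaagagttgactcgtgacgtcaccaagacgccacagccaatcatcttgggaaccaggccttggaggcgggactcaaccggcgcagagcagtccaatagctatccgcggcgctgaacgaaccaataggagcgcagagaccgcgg
Rrm1, chr7:102441445-102441724, plus strand: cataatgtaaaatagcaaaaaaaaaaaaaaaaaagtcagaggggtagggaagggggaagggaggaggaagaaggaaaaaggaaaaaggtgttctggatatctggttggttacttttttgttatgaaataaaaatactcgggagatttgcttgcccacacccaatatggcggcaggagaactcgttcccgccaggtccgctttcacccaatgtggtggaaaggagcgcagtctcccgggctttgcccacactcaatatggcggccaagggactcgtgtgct
A match is a description of letters, and no binding was measured in these samples.

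Reads counted in genes came to 17111611 to 29840046 per library. Galnt17 checked the labels, with 63 to 80 counts in the KO libraries and 729 to 1119 in the WT libraries. The tissue label was checked on Gabra6, a receptor subunit of cerebellar granule cells, at 542 to 734 CPM over all libraries, and on the Purkinje cell gene Pcp2, at 157 to 222 CPM. CPM is the count scaled to a common library size. Over all genes, 143 were higher and 159 lower in KO at an adjusted p below 0.05 in edgeR's quasi-likelihood test. WT replicate 1 stood apart: its deviation from the mean of the libraries had a Spearman correlation of -0.34 with transcript GC content over 10687 genes, against -0.07 to 0.18 in the other libraries. The share of reads that did not map was 13.8% to 17.2% in KO and 6.52% to 10.03% in WT, and its part in the results was not tested. The libraries are from separate animals, and p-values measure the spread between them.

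None of the 33 replication genes differed between KO and WT past the threshold. The count was 0 in edgeR, DESeq2 and limma-voom alike, where edgeR called 1.66% of all genes tested (0.784% higher and 0.872% lower). Without an adjustment for the number of genes, 3 members passed 0.05, Mcm6, Ccnd1 and Rrm1, all lower in KO, and 0 were higher, against 8.99% of all genes lower and 8.57% higher at that level. The KO libraries lay all below the WT libraries in 5 members (Mcm4, Mcm6, Mcm7, Rfc3 and Ccnd1), against 12.2% of all genes, and all above in 0, against 11.5%. With 9.09% of the members lower at an unadjusted p of 0.05 and 15.2% without overlap, both shares are near those of genes at large. The differences were small: the largest with all libraries in the fit was -0.24 on the log2 scale, and the 95% interval excluded a change of 1.5-fold in either direction for 29 members. The signs were uneven, with 31 members lower and 2 higher in KO, or 93.9% lower, where 51.5% of all genes were lower. Their median difference was -0.11 on the log2 scale, against -0.0073 over all genes. The members were measured in the same 6 libraries and move together, so their signs are not separate pieces of evidence.

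Single animals set the size of that median. It was -0.06 without KO replicate 3 (26 of 33 members lower, against 51.8% of all genes), -0.04 without WT replicate 2 (23 lower, against 50.5%) and -0.18 without WT replicate 1 (32 lower, against 50.4%). Without WT replicate 1, 7 of the 33 members were lower at an unadjusted p of 0.05, where 14.6% of all genes were. Rrm1 alone passed the adjusted threshold, as the 1 member of 33, while 1921 genes or 10.5% of those tested were then called, and 5.24% were called lower. Were these genes lower in KO, fewer dividing cells and less of their RNA per cell could not be told apart in whole tissue.

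**Figure D1:**
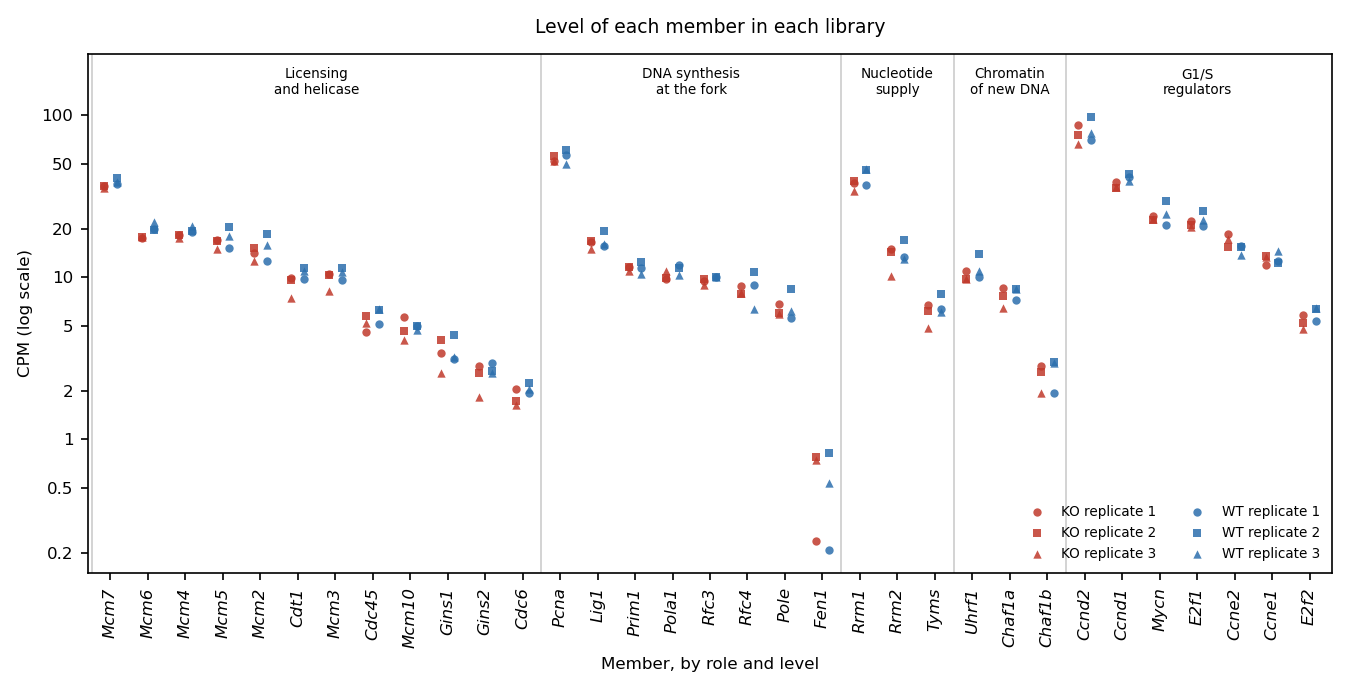
Level of each member in each library in CPM on a log axis, with KO libraries in red and WT libraries in blue, grouped by role. Within most members the colours interleave, and Ccnd2 lies highest, between 66.2 and 98.1 CPM.

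In the licensing and helicase genes every difference had the same sign. The MCM proteins 2 to 7 form the ring that opens the helix, CDC6 and CDT1 load it, and CDC45 and the GINS proteins turn it into the active helicase. All 12 genes of this group had a lower mean in KO, and 0 passed the test, with a median log2 fold change of -0.15. Mcm6 (chromosome 1, 128331590 to 128359664, minus strand, GRCm38) was at 17.6, 17.8 and 17.7 CPM in the KO libraries and at 19.8, 19.6 and 21.9 CPM in the WT libraries, always given here in the order of replicates 1, 2 and 3. Every KO library lay below every WT library. The KO libraries, at 524, 414 and 356 counts, differed among themselves by 1.33% of their mean. At such counts so narrow a range does not measure the spread between animals. The log2 fold change was -0.21 (SE 0.08, 95% interval -0.39 to -0.03, adjusted p = 0.216), the smallest p of the 33 with all libraries in the fit. Mcm4 (chromosome 16, 15623897 to 15637400, minus strand) was at 18.2, 18.3 and 17.4 CPM in KO and 19.1, 19.2 and 20.8 CPM in WT, again without overlap (log2 fold change -0.14, SE 0.08, adjusted p = 0.399). Mcm7 (chromosome 5, 138164583 to 138172422, minus strand) was at 36.6, 36.5 and 35.6 CPM in KO and 37.5, 41.4 and 38.98 CPM in WT. The gap between the groups was smaller than the gaps between the WT libraries (log2 fold change -0.11, SE 0.06, adjusted p = 0.361). Mcm7 lies 6.86 Mb from Galnt17 and its exons overlap those of 4 other genes over 12.6% of their bases.

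In Mcm5 the groups overlapped. It was at 16.96, 16.8 and 14.9 CPM in KO and 15.2, 20.5 and 17.9 CPM in WT, where WT replicate 1 lay under both of the first KO libraries (adjusted p = 0.58). In Mcm2 and Mcm3, too, WT replicate 1 lay under at least 1 KO library, with means of 14.0 ± 1.34 against 15.7 ± 2.96 CPM and 9.69 ± 1.25 against 10.6 ± 0.978 CPM (KO against WT, SD, n = 3 each). Together, Mcm2 to Mcm7 had log2 fold changes between -0.21 and -0.11, and their summed level was 106 to 115 CPM in KO and 114 to 131 CPM in WT. KO replicates 1 and 2 and WT replicate 1 nearly coincided in that sum.

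The loading factor gene Cdt1 (chromosome 8, 122568015 to 122573554, plus strand) was at 9.95, 9.67 and 7.45 CPM in KO and at 9.81, 11.5 and 10.9 CPM in WT. KO replicate 3 lay lowest, and KO replicate 1 lay above WT replicate 1 (log2 fold change -0.24, SE 0.13, adjusted p = 0.377). This was the largest difference of the members with all 6 libraries in the fit, but its rank rested on single libraries: without KO replicate 3 it was -0.13, where that of Mcm6 was -0.21, and without WT replicate 1 it was -0.30, where that of Rrm1 was -0.32. Cdc45 was at 4.62, 5.80 and 5.26 CPM in KO and 5.18, 6.28 and 6.42 CPM in WT (log2 fold change -0.19, SE 0.15, adjusted p = 0.559). Cdc6, which loads the helicase together with CDT1, had only 33 to 61 counts per library and means of 1.80 ± 0.215 against 2.07 ± 0.144 CPM. Of the GINS subunit genes, Gins1 and Gins2 had log2 fold changes of -0.07 and -0.16 with intervals from -0.62 to 0.41 between them. Of the exon bases of Gins2, 67.3% are shared with Gse1 on the opposite strand. Mcm10, an initiation factor that is not part of the ring, was at 4.82 ± 0.780 against 4.92 ± 0.137 CPM (log2 fold change -0.02).

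Of the 8 genes of DNA synthesis at the fork 7 were below 0 on the log2 scale and 0 passed, with a median log2 fold change of -0.07. Pcna, the sliding clamp gene, had the highest level per exon length of all 33 members, at 22.8 CPM per kilobase, and Mcm7 came next at 8.53. Pcna was at 52.5, 55.8 and 52.3 CPM in KO and 56.9, 61.1 and 50.3 CPM in WT. The lowest and the highest library were both WT (log2 fold change -0.07, 95% interval -0.23 to 0.09, adjusted p = 0.669). Pola1, the catalytic subunit of the polymerase that starts each new strand, was at 9.82, 9.97 and 11.0 CPM in KO and 11.8, 11.5 and 10.4 CPM in WT (log2 fold change -0.13, SE 0.11, adjusted p = 0.548). Here KO replicate 3 was the highest of the KO libraries.

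Prim1, the primase gene, had nearly equal means, 11.3 ± 0.367 in KO against 11.4 ± 0.995 CPM in WT. Pole, the leading-strand polymerase gene, was at 6.26 ± 0.478 against 6.77 ± 1.53 CPM, with WT replicate 2 above all other libraries at 8.51 CPM. The clamp loader genes Rfc3 and Rfc4 differed in spread. Rfc3 was at 9.48, 9.80 and 8.99 CPM in KO and 10.02, 10.03 and 10.1 CPM in WT. The groups did not overlap, but the gap between KO replicate 2 and WT replicate 1 was smaller than that between any pair of KO libraries (log2 fold change -0.09, SE 0.10, adjusted p = 0.682). Rfc4 ranged from 6.42 to 10.7 CPM within WT alone, wider than the whole KO group at 7.91 to 8.81 CPM. Lig1, the ligase gene that seals Okazaki fragments, was at 16.1 ± 0.982 against 17.03 ± 1.98 CPM. Fen1, the flap nuclease gene, had 5 to 18 counts per library and the widest interval of all members, from -1.07 to 1.42. It was at 0.235, 0.774 and 0.745 CPM in KO and 0.207, 0.821 and 0.535 CPM in WT, with replicate 1 of each group far below the other libraries. Of its exon bases 84.2% lie in exons of Tmem258 or Gm10143 on the opposite strand, and reads shared by 2 genes go to the ambiguous line of STAR's tables, so these counts come from the remainder of the gene.

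**Figure D2:**
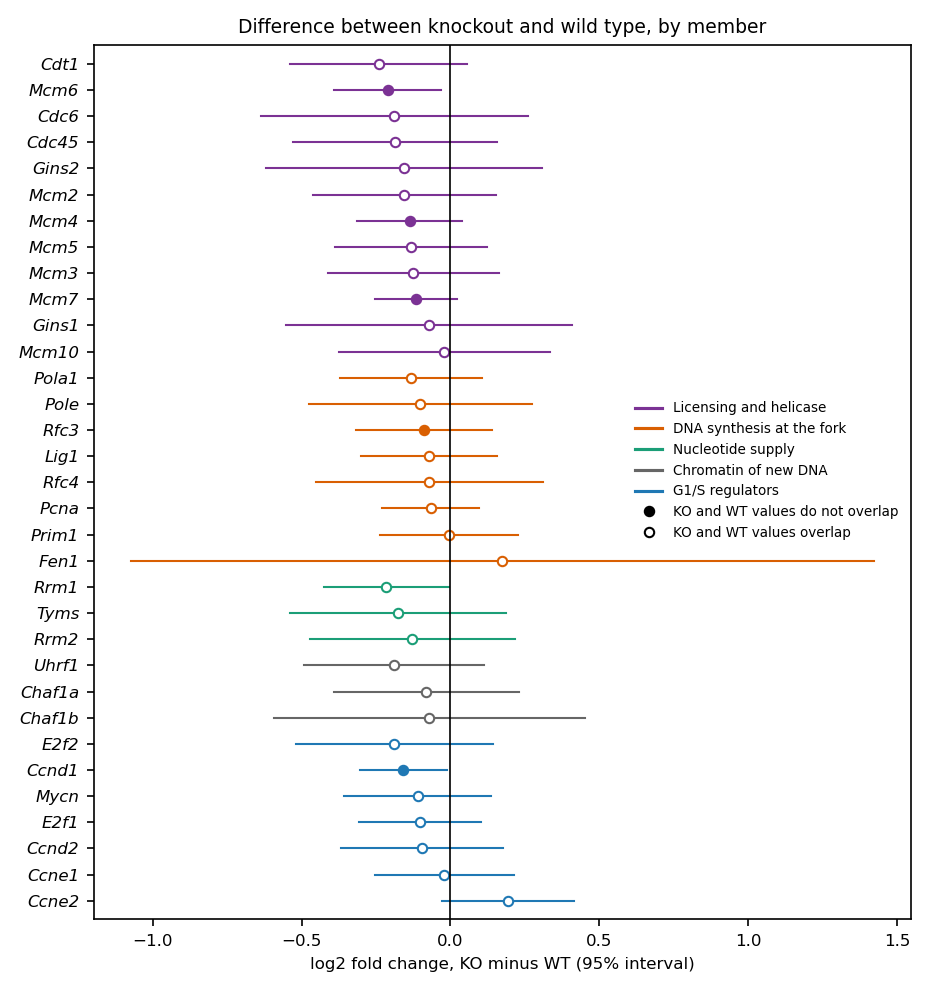
Difference between KO and WT for each member as log2 fold change with its 95% interval, coloured by role. Points lie between -0.24 and 0.19, filled points mark the 5 members whose KO and WT values do not overlap, and the intervals of 3 members (Mcm6, Ccnd1 and Rrm1) lie below 0.

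All 3 nucleotide supply genes had a lower mean in KO, and 0 passed the test. RRM1 and RRM2 are the subunits of ribonucleotide reductase, which makes deoxyribonucleotides, and TYMS makes thymidylate. Rrm1 (chromosome 7, 102441695 to 102469771, plus strand) was at 38.07, 39.2 and 34.2 CPM in KO and 37.0, 46.2 and 46.7 CPM in WT. WT replicates 2 and 3 lay above every KO library, and WT replicate 1 lay among them (log2 fold change -0.22, SE 0.09, adjusted p = 0.271). Without WT replicate 1 the log2 fold change was -0.32 and the adjusted p 0.0187, and over the other alternatives the adjusted p ran from 0.0798 to 0.593. Rrm2 was at 13.1 ± 2.62 against 14.5 ± 2.16 CPM and Tyms at 5.95 ± 0.967 against 6.77 ± 0.948 CPM. In both genes KO replicate 3 was lowest, at 10.1 and 4.87 CPM, and WT replicate 2 highest, at 16.9 and 7.86 CPM.

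The 3 genes of newly replicated chromatin also had lower means in KO, and 0 passed. UHRF1 brings the maintenance DNA methyltransferase to freshly copied DNA, and CHAF1A and CHAF1B place histones on it. Uhrf1 was at 10.9, 9.71 and 9.78 CPM in KO and 10.02, 14.0 and 10.9 CPM in WT. WT replicate 2 stood alone above the other 5 libraries (log2 fold change -0.19, SE 0.14, adjusted p = 0.498). Chaf1a was at 7.58 ± 1.04 against 8.07 ± 0.751 CPM, with 52.5% of its exon bases shared with Ubxn6 on the opposite strand, and Chaf1b at 2.47 ± 0.475 against 2.63 ± 0.596 CPM.

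Among the G1/S regulators the cyclin genes went different ways, none past the threshold. Ccnd1, the cyclin D1 gene and a Hedgehog-responsive gene of granule precursors (chromosome 7, 144929931 to 144939925, minus strand), was at 39.04, 35.8 and 36.2 CPM in KO and 41.6, 43.3 and 39.2 CPM in WT. The groups did not overlap, but KO replicate 1 and WT replicate 3 were nearly equal (log2 fold change -0.16, SE 0.07, 95% interval -0.30 to -0.01, adjusted p = 0.252). Ccnd2, the cyclin D2 gene, was at 87.1, 76.0 and 66.2 CPM in KO and 70.5, 98.1 and 77.6 CPM in WT. Its values interleaved fully, with KO replicate 1 second only to WT replicate 2 (log2 fold change -0.10, SE 0.12, adjusted p = 0.721). Ccne2, a cyclin E gene, had a higher mean in KO, at 18.4, 15.3 and 17.3 CPM against 15.5, 15.4 and 13.8 CPM in WT. KO replicates 1 and 3 were above all WT libraries and KO replicate 2 was not (log2 fold change 0.19, SE 0.10, adjusted p = 0.341). The GC content of its transcript is 36.3%. With an offset for the GC trend of each library, chosen after the data were seen, its log2 fold change was 0.088. Ccne1, the other cyclin E gene, was at 13.0 ± 0.873 against 13.1 ± 1.17 CPM.

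The transcription factor genes of the group showed small differences. E2f2 was at 5.86, 5.24 and 4.77 CPM in KO and 5.34, 6.39 and 6.46 CPM in WT, with WT replicate 1 inside the KO range (log2 fold change -0.19, SE 0.15, adjusted p = 0.539). E2f1 was at 21.3 ± 0.985 against 22.9 ± 2.47 CPM (adjusted p = 0.602). Mycn, the N-Myc gene that Hedgehog signalling induces in granule precursors, was at 23.1 ± 0.812 against 25.1 ± 4.23 CPM (adjusted p = 0.642). Its WT libraries ran from 21.1 to 29.5 CPM and enclosed all KO libraries. The 12 members with an E2F-type motif in their promoter window had a median log2 fold change of -0.13 and the 14 with a window but no such motif one of -0.08. The split rests on exact matches to the listed sequences in any window of a gene, and no other form of E2F site was searched. The difference between these medians was not tested.

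A score for each library, the mean log2 CPM of the 33 members, sums up the pattern. The KO libraries scored 3.42, 3.42 and 3.27 and the WT libraries 3.35, 3.63 and 3.46. WT replicate 1 lay between the KO libraries, and the difference between the group means was -0.11, against SDs of 0.09 in KO and 0.14 in WT. The difference was -0.03 without WT replicate 2, -0.06 without KO replicate 3 and -0.17 without WT replicate 1. KO replicate 3 was the lowest library in 20 of the 33 members and WT replicate 2 the highest in 21. The members varied more between animals of 1 group than genes at large, their SD of log2 CPM having a median of 0.11 in KO and 0.15 in WT, against 0.05 and 0.10 over the 10687 genes above 10 CPM. That comparison does not match the members' levels, since only 19 of them are at or above 10 CPM.

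**Figure D3:**
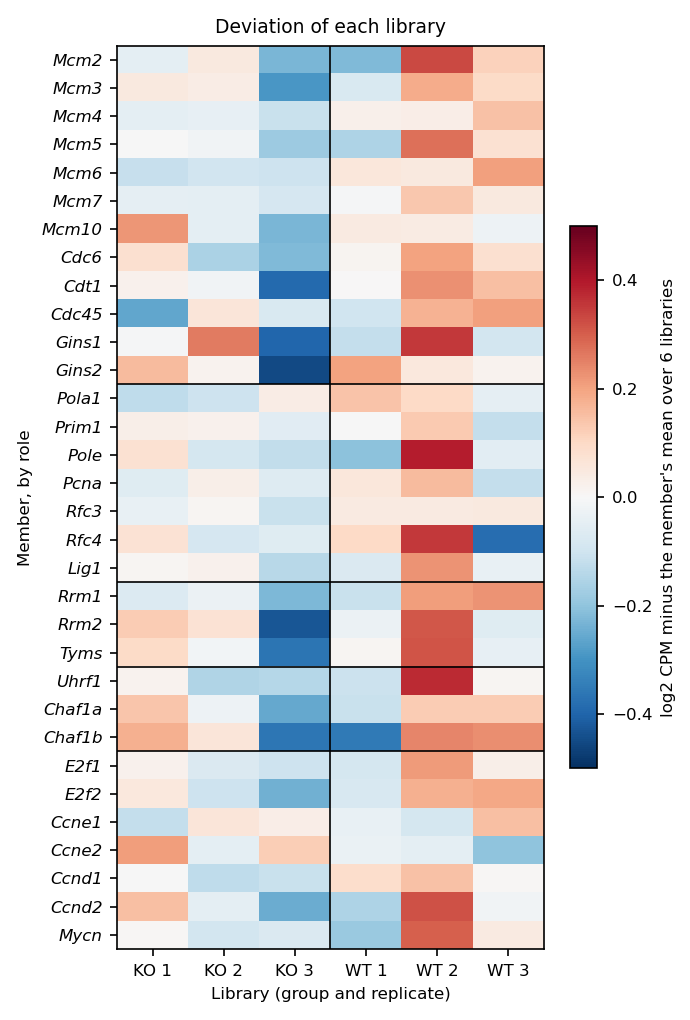
Deviation of each library from the member's mean, in log2 CPM, for 32 members by role (Fen1, with 5 to 18 counts per library, is left out). The column of WT replicate 2 is mostly red and that of KO replicate 3 mostly blue, while KO replicates 1 and 2 and WT replicate 1 are mixed.

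The other genes of the pathway were read from lists of origin recognition, polymerase, clamp, nucleotide, chromatin and cell cycle genes. Of 84 such genes tested, 0 passed, with a median of -0.06 on the log2 scale. At an unadjusted p of 0.05, 6 were lower and 0 higher, against 8.99% and 8.57% of all genes. Among 41 further replication genes the median was -0.02, with 24 lower and 17 higher, where 51.5% of all genes were lower. The origin recognition gene Orc5 was at 21.8 ± 0.384 in KO against 25.1 ± 1.02 CPM in WT (adjusted p = 0.187), while Orc4 was at 73.1 ± 1.51 against 63.5 ± 10.2 CPM (adjusted p = 0.31). Recql4, a helicase gene of replication initiation, was at 9.66 ± 1.10 against 8.06 ± 0.213 CPM (adjusted p = 0.308). Dut, which clears dUTP from the nucleotide pool, was at 39.9 ± 1.48 against 46.2 ± 3.19 CPM (adjusted p = 0.151), and the histone chaperone gene Nasp at 90.3 ± 1.98 against 101.6 ± 7.25 CPM (adjusted p = 0.194). Myc was at 4.45 ± 0.182 against 5.93 ± 0.898 CPM (adjusted p = 0.213) and the S-phase cyclin gene Ccna2 at 13.9 ± 1.49 against 17.2 ± 2.94 CPM (adjusted p = 0.286). Of 6 tested inhibitors of cyclin-dependent kinases, Cdkn1a, the p21 gene, was at 52.4 ± 5.58 against 62.4 ± 2.55 CPM (adjusted p = 0.136), Cdkn2c, the p18 gene, at 11.7 ± 0.536 against 13.4 ± 1.3 CPM (adjusted p = 0.363) and Cdkn1b, the p27 gene, at 181 ± 3.79 against 169 ± 7.72 CPM (adjusted p = 0.377). The gene Cdkn2a was under the filter on low counts.

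Genes of mitosis also had mostly lower means in KO. Of 28 tested, 0 passed, and the median was -0.31 on the log2 scale. A lower mean in KO was seen in 27, where 51.5% of all genes were lower. At an unadjusted p of 0.05, 9 of the 28 were lower, a larger share than the 8.99% of all genes. These genes were measured in the same libraries, so their signs are not separate pieces of evidence. The kinetochore gene Nuf2 was at 5.71 ± 1.07 against 8.17 ± 0.813 CPM (adjusted p = 0.143) and the spindle checkpoint kinase gene Ttk at 3.02 ± 0.568 against 4.51 ± 0.33 CPM (adjusted p = 0.145), each without overlap. The score of the list was 3.07, 2.95 and 2.66 in KO and 3.07, 3.41 and 3.13 in WT. KO replicate 3 was again lowest and WT replicate 2 highest, and KO replicate 1 was level with WT replicate 1. Whether mitosis and replication genes differ in their change was not tested.

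**Figure D4:**
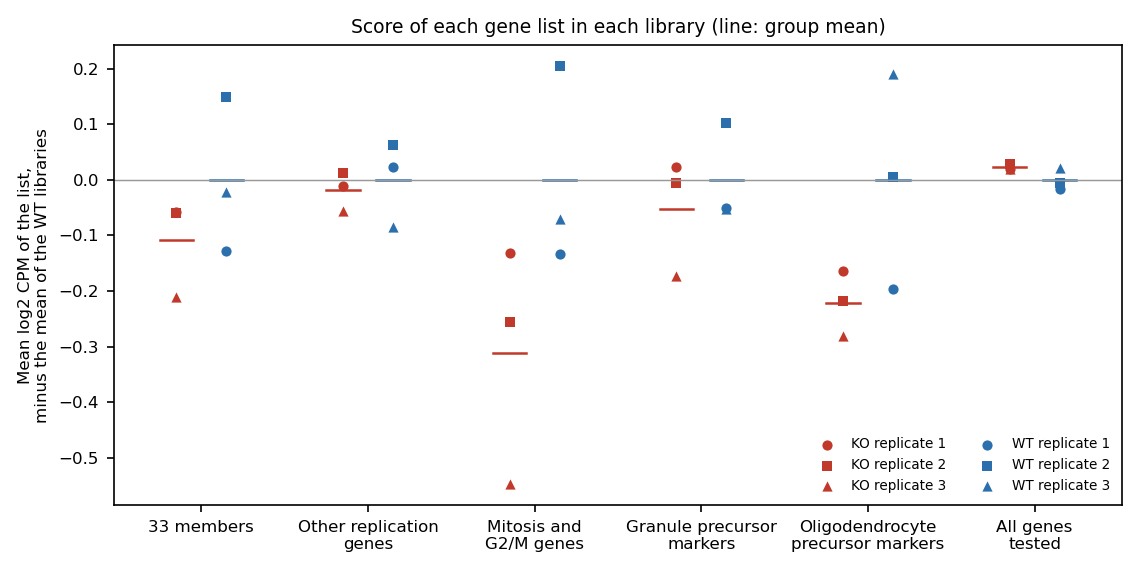
Score of each gene list (mean log2 CPM) in each library, minus the mean of the 3 WT libraries, with a line at each group mean. For the 33 members the WT libraries enclose 2 of the 3 KO libraries, for mitosis genes KO replicate 1 lies level with WT replicate 1, and over all genes tested the libraries nearly coincide.

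Markers of the cells that divide at this age were mixed in sign for granule precursors and mostly lower in KO for oligodendrocyte precursors, none past the threshold. Of 12 granule precursor markers 0 passed, 5 had a lower and 7 a higher mean (median log2 fold change 0.08). At an unadjusted p of 0.05, 2 of the 12 were higher and 2 lower, against 8.57% and 8.99% of all genes. The summed level of this list was 1870 to 1954 CPM in KO and 1680 to 1815 CPM in WT, most of it Zic1. Atoh1, the defining transcription factor gene of granule precursors, was at 1.61, 1.85 and 0.844 CPM in KO and 2.24, 3.64 and 2.58 CPM in WT (adjusted p = 0.144), with KO replicate 3 lowest and WT replicate 2 highest as in the replication genes. Sfrp1, another gene of the external granule layer, was at 36.6 ± 5.84 against 51.5 ± 7.59 CPM (adjusted p = 0.0862). The Hedgehog target Gli1 had the opposite sign, at 24.4 ± 1.01 against 19.6 ± 2.77 CPM (adjusted p = 0.158), and so did Zic1, at 1206 ± 24.3 against 1040 ± 29.3 CPM (adjusted p = 0.106). Of 10 oligodendrocyte precursor markers 0 passed, 9 had a lower and 1 a higher mean (median log2 fold change -0.26), where 51.5% of all genes were lower. At an unadjusted p of 0.05, 4 of the 10 were lower, a larger share than the 8.99% of all genes. These markers, too, were measured in the same libraries and are not separate pieces of evidence. The summed level of these markers was 658 to 699 CPM in KO and 702 to 872 CPM in WT. C1ql1 was at 15.9 ± 2.35 against 23.1 ± 2.10 CPM (adjusted p = 0.054), Gpr17 at 120 ± 7.25 against 145 ± 20.8 CPM (adjusted p = 0.166), Olig2 at 33.6 ± 2.20 against 40.4 ± 4.47 CPM (adjusted p = 0.174) and Pdgfra at 36.4 ± 1.57 against 44.5 ± 7.12 CPM (adjusted p = 0.189). What either marker list contributes to the replication genes' values was not tested.

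Markers of other cells were read in the same way. Past the adjusted threshold, 0.872% of all genes were lower and 0.784% higher. Of 10 choroid plexus markers 7 were lower, with summed levels of 239 to 795 CPM in KO and 1624 to 2917 CPM in WT, and none of the 10 was at 0. By replicate, the choroid plexus sums were 239, 533 and 795 CPM in KO and 1624, 2543 and 2917 CPM in WT. Of 10 Purkinje cell markers 3 were higher (5673 to 5907 against 4717 to 5036 CPM in sum), of 10 mature granule markers 1 was lower (5554 to 5847 against 5590 to 5911 CPM), and of 6 tested red blood cell genes 1 was lower (201 to 224 against 211 to 241 CPM). Of 10 markers each of astrocytes and Bergmann glia, microglia, endothelium and meningeal fibroblasts, 0 passed. Their summed levels were 4291 to 4353 against 4157 to 4427 CPM, 154 to 164.7 against 150.3 to 170 CPM, 265 to 289 against 248 to 290 CPM and 301 to 330 against 278 to 306 CPM. What any of these lists contributes to the members' values was not tested.

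Position near the targeted gene was read for 4 members on chromosome 5. Mcm7, at 6.86 Mb, and Rfc3, at 20.3 Mb, were among the 5 members without overlap, where 12.2% of all genes had all KO libraries below all WT libraries. The other members without overlap, Mcm4, Mcm6 and Ccnd1, lie on chromosomes 16, 1 and 7. Pole, at 20.5 Mb, and Tyms, at 101 Mb, had overlapping groups. Whether position has a part in these values was not tested.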

How the data were processed

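RNA of 6 cerebella was sequenced as paired reads of 150 bases. For each library the authors deposited raw counts of reads by gene, from STAR 2.7.5a (the submitters' processing notes, which also give the build, mm10/GRCm38) and Ensembl release 102 (file names). Not given in the sources used here were the settings of STAR. The column without strand was used, since the first strand column held 49.9% to 50.0% of the strand counts. Genes on opposite strands can therefore not be told apart, and 3.95% to 4.44% of reads were ambiguous between genes. Lines that name no gene were left out.

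Groups came from the strain label, and replicates were numbered by accession. GENCODE release 21 (GRCm38) gave symbols, positions and exon lengths for 99.5% of identifiers. CPM per kilobase divides by the union of annotated exons. Counts were tested with edgeR 4.0.16 in R 4.3.3 (TMM, filter at a minimum count of 10, two-sided quasi-likelihood F test, Benjamini-Hochberg over 18237 genes, adjusted p below 0.05). Intervals rest on the F statistic and 6.36 prior degrees of freedom, and cover the spread between animals. Scores are means of log2 CPM with a prior count of 2. Alternatives were DESeq2 1.42.0, limma-voom (limma 3.58.1) without and with sample quality weights, RLE size factors, no filter and each library left out. Chosen after the data were seen were an offset for the GC trend of each library and leaving out Gins2, Fen1 and Chaf1a. In these members other genes overlap most of the exon bases. The steps were tested on simulated counts.

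The members and lists were chosen with earlier results of these data known. Values in each library are given for the 12 members with the smallest p, the highest in CPM of each role, and Rfc3 and Fen1, chosen after their values were seen. Other lists give up to 4 genes with the smallest p, and Gabra6, Pcp2 and Cdkn2a were named for other reasons.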

Additional observations from a re-analysis of the deposited data

How the results depend on the processing

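No paired analysis was possible because replicates are numbered by accession only and the labels pair no KO with a WT animal. Of 396 values of single members over 12 alternative fits, 369 kept their direction and side of the threshold, 26 changed sign and 1 passed it, and 20 members kept their direction in all 12 fits. The number of genes called, 302, was 562 in DESeq2, 793 with sample quality weights, 1623 with no filter and 81 to 1921 when a library was left out. Members called, 0, were 0 to 1 and members at an unadjusted p under 0.05, 3, were 0 to 7 when a library was left out. The latter were 1 in DESeq2 and 0 with the GC offset. The cause of these changes was not tested. The median log2 fold change stayed between -0.14 and -0.09 in the fits that kept all libraries.

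Log2 fold changes turned for Prim1 to 0.0057 in limma-voom and 0.016 with the GC offset, for Mcm10 to 0.019 and Ccne1 to 0.0069 with that offset, and for Fen1 to -0.030 with sample quality weights. When a library was left out the range spanned 0 for Ccnd2 (-0.20 to 0.053), Ccne1 (-0.063 to 0.055), Chaf1a (-0.18 to 0.012), Chaf1b (-0.26 to 0.066), Fen1 (-0.26 to 0.63), Gins1 (-0.24 to 0.096), Lig1 (-0.13 to 0.027), Mcm10 (-0.16 to 0.075), Mycn (-0.23 to 0.021), Pole (-0.22 to 0.092), Prim1 (-0.060 to 0.062), Rfc4 (-0.24 to 0.10) and Rrm2 (-0.23 to 0.021). Depth limits Fen1, Cdc6, Gins2 and Chaf1b, with under 50 counts in a library, while 25 members had at least 100 counts in every library.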
